A study of Mus musculus with 8 samples.

Results

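The 10 genes described here, Ccl2, Ccl3, Ccl4, Ccl5, Ccl6, Ccl7, Ccl8, Ccl9, Ccl22 and Ccl24, encode CC chemokine ligands. They were chosen by gene symbol, with earlier results of these data known, and each symbol matched 1 of the 55450 genes in the deposited matrix. All 10 passed the filter on low counts over all cells of a liver. Droplet-based single-cell RNA sequencing was done on dissociated livers of 8 wild-type C57BL/6 mice. The 2 control mice had a normal diet and water. The 3 HFD+F+CCl4 mice had a high-fat diet with fructose solution and intraperitoneal carbon tetrachloride (CCl4), and the 3 WD+F+CCl4 mice had a western diet with the same fructose and CCl4. No group had a diet without CCl4, so the parts of diet, fructose and CCl4 in any difference from control cannot be told apart. Ages and sexes were not in the labels used here.

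CC chemokines are small secreted proteins that bind G protein-coupled CCR receptors on leukocytes and direct their migration. In injured liver, CCL2 is known for recruiting CCR2-bearing monocytes from blood, and CCL3, CCL4 and CCL5 for attracting T cells, NK cells and myeloid cells. CCL22 attracts T cells through CCR4, and CCL24 attracts eosinophils through CCR3.

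After barcodes with 500 or fewer detected genes or with 25% or more mitochondrial UMIs were left out, 80474 of 88581 barcodes remained. Kept cells per mouse numbered 4168 to 11999, and kept UMIs 5305581 to 63878061, with control mouse 2 lowest in both. The median UMI count per cell was 2397 and 992.5 in the control mice and 3159 to 4278 in the model mice. Each library shared 100 to 210 of its kept barcode sequences with another library. Cells were clustered without the Ccl and Cxcl genes and named from marker lists, so every type below is "like" its name, and 12450 cells in 13 clusters stayed unnamed. These were 27.7% and 64.8% of the cells of control mice 1 and 2, and 4.95% to 18.2% of those of the model mice. Comparisons within types leave them out. Kupffer-like cells, lipid-associated macrophage (LAM)-like cells, macrophage-like cells, patrolling monocyte-like cells and mature dendritic cell (DC)-like cells had fewer than 20 cells in each control mouse, so their levels are given for model mice only. In the model mice, all 6 markers of the mature DC list had a UMI in the mature DC-like cells, with a summed level of 2888 to 6452 CPM (a gene's UMIs scaled to 1000000 UMIs of the summed cells), and all 6 Kupffer cell markers did in the Kupffer-like cells, at 5405 to 15591 CPM. The same lists named these clusters, so the sums are no separate check of the names.

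The deposited gene identifiers place 8 members on mouse chromosome 11 (GRCm38), within 1629 kb. Ccl2 (chr11:82035571-82037453, plus strand), Ccl7 (chr11:82045712-82047525, plus) and Ccl8 (chr11:82115185-82116799, plus) lie within 81.2 kb. After a gap of 1409 kb come Ccl5 (chr11:83525778-83530518, minus), Ccl9 (chr11:83572919-83578636, minus), Ccl6 (chr11:83587882-83593087, minus), Ccl3 (chr11:83647844-83649355, minus) and Ccl4 (chr11:83662584-83664683, plus), within 139 kb. Ccl22 lies on chromosome 8 (chr8:94745590-94751699, plus) and Ccl24 on chromosome 5 (chr5:135569937-135573049, minus).

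RefSeq promoter sequences of GRCm38.p6 were matched for 5 members (Ccl3, Ccl6, Ccl8, Ccl9 and Ccl22), and the 250 bases before the RefSeq start of 4 of them are printed on the gene's own strand. Ccl6 and Ccl9 are shown because these neighbours had alike levels across cell types, Ccl8 because it was almost undetected in control liver, and Ccl3 because its level differed widely between mice within a type. Capitals mark matches, on either strand, to TATAAA or to the AP-1 motif TGANTCA.
Ccl8, chr11:82114935-82115184, plus strand: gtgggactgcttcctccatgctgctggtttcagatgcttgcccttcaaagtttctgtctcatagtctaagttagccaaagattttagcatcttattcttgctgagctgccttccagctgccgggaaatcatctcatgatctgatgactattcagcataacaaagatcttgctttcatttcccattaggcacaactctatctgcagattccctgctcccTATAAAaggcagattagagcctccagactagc
Ccl9, chr11:83578637-83578886, minus strand: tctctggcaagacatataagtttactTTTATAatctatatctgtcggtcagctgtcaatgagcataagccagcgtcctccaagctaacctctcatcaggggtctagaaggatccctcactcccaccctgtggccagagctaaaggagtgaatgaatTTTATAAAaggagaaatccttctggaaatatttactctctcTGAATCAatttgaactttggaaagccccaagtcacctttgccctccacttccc
Ccl6, chr11:83593088-83593337, minus strand: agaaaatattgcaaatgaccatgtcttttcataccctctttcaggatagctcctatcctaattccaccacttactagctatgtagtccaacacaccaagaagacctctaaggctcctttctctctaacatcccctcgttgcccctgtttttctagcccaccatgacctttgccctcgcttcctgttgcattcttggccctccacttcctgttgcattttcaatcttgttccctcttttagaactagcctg
Ccl3, chr11:83649379-83649628, minus strand: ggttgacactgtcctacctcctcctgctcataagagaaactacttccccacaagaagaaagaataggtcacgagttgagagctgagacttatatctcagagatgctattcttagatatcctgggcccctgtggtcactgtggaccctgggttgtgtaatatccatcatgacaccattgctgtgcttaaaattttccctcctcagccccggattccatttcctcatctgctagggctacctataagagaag

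The motifs searched on both strands were AP-1 (TGANTCA, held by 6.75% of 32851 promoter windows of this length), a core of the NF-kB motif (GGANNTTCC, 3.59%), PU.1 (GAGGAAGT, 2.44%), C/EBP (TTGCNNAA, 9.56%) and TATAAA (12.4%). The Ccl8 window held TATAAA 32 bases before the start. The Ccl9 window held the AP-1 motif 53 bases before the start and TATAAA 92, 94 and 224 bases before it, the matches at 92 and 94 bases overlapping on opposite strands. The Ccl3, Ccl6 and Ccl22 windows held none of these letters. The longest run shared by the Ccl6 and Ccl9 windows was the 13 bases GCCCTCCACTTCC, which lay 55 and 14 bases before their starts.

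Each model was first compared with control in the summed UMIs of all kept cells of a mouse, where the members measure what the whole suspension held. Of the 10 members, 6 rose in HFD+F+CCl4 liver (Ccl2, Ccl3, Ccl4, Ccl6, Ccl7 and Ccl9) and none fell, where 18.9% of the 19787 genes tested were called in either direction by edgeR's quasi-likelihood test with Benjamini-Hochberg adjustment over all genes. In WD+F+CCl4 liver 6 rose (Ccl2, Ccl3, Ccl6, Ccl7, Ccl8 and Ccl9) and Ccl22 fell, where 21.4% of genes were called. The members' median log2 fold was 2.38 in HFD+F+CCl4 and 2.24 in WD+F+CCl4 liver, against -0.009 and -0.06 over all genes tested. Because the members were chosen with earlier results of these data known, the contrasts with all genes are descriptions. Both comparisons used the same 2 control mice. Between the models 0% of genes were called by edgeR, and DESeq2 called 46 genes and 1 member, Ccl2. An unadjusted edgeR p under 0.05 was found for 767 of the 19787 genes and 5 of the 10 members. Without adjustment these counts are not read as differences between the models. In these sums, more cells of a type and more RNA per cell cannot be told apart.

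**Figure D1:**
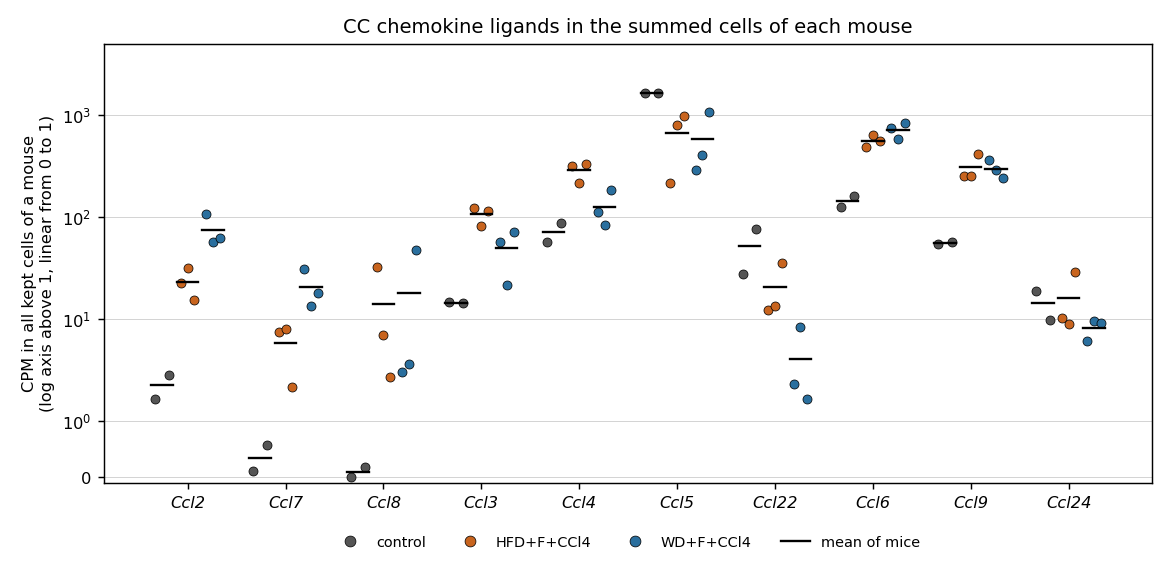
Level of each of the 10 CC chemokine ligands in the summed kept cells of each mouse (y axis, CPM, logarithmic above 1 and linear from 0 to 1), with 1 point per mouse in control (n = 2), HFD+F+CCl4 (n = 3) and WD+F+CCl4 (n = 3) liver and a bar at the group mean. Ccl2, Ccl6, Ccl7 and Ccl9 of all 6 model mice lay above both control mice, and Ccl22 of the 3 WD+F+CCl4 mice lay below both.

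Across the cell types of the model mice, the members differed in their leading type. Mean CPM pooled over the mice of both models was highest in LAM-like cells for Ccl2, Ccl7 and Ccl9, in Kupffer-like cells for Ccl6, Ccl8 and Ccl24, in NK-like cells for Ccl4, in T-like cells for Ccl5, in neutrophil-like cells for Ccl3 and in mature DC-like cells for Ccl22. The first place differed between the models for 5 members. Among the 18 types compared, the HFD+F+CCl4 mean was highest in classical monocyte-like cells for Ccl2 (52.9 CPM against 40.4 in LAM-like cells), Ccl9 (486 against 466) and Ccl24 (41.7 against 23.5 in Kupffer-like cells), in Kupffer-like cells for Ccl7 (8.86 CPM in LAM-like cells) and in T-like cells for Ccl3 (397 against 273 in neutrophil-like cells). Ranges over mice mostly overlapped between neighbours in these orders of 18 types. Of the 17 neighbouring pairs, 1 pair was apart for Ccl5 (NK-like above mature DC-like cells), 1 for Ccl6 and 1 for Ccl22 (mature DC-like cells above all others), and none for the other 7 members.

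**Figure D2:**
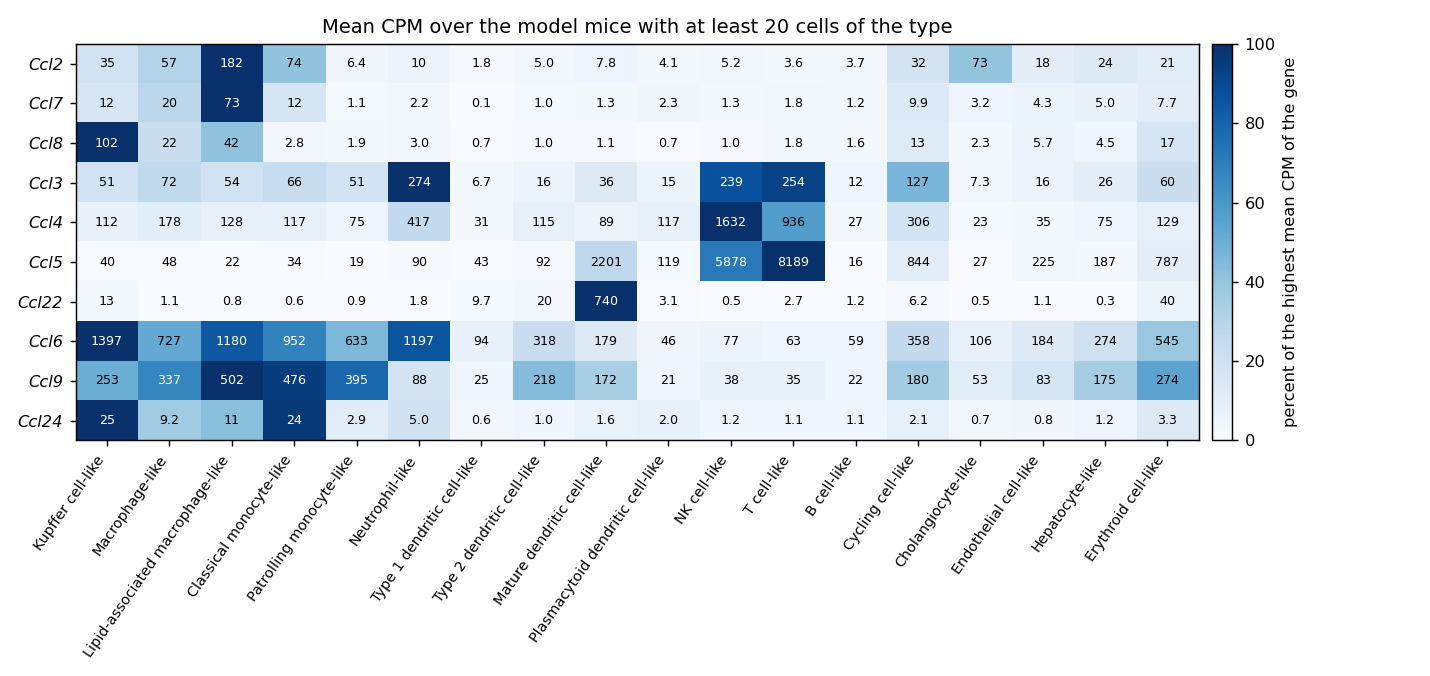
Mean level of each member (rows) in 18 cell types (columns), over the model mice with at least 20 cells of the type. The printed numbers are mean CPM, and the colour gives the percent of that gene's highest mean CPM. Ccl22 was concentrated in mature DC-like cells, Ccl5 in T-like, NK-like and mature DC-like cells, while the highest means of Ccl2 were in LAM-like (182), classical monocyte-like (73.9) and cholangiocyte-like cells (73.1).

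Ccl2 and Ccl7 encode ligands of CCR2, the receptor through which classical monocytes enter tissue. In all cells, Ccl2 was at 1.62 and 2.83 CPM in control, 22.7, 31.4 and 15.3 in HFD+F+CCl4, and 106, 56.3 and 62.6 in WD+F+CCl4 mice. The 3 groups did not overlap. The log2 fold of Ccl2 was 3.59 (SE 0.46, adjusted p = 0.0032) in HFD+F+CCl4 and 5.37 (SE 0.50, adjusted p = 0.0011) in WD+F+CCl4 liver, and both calls held in every alternative run. The difference between the models, 1.78 on the log2 scale with an unadjusted edgeR p of 0.0009, did not pass the adjusted threshold.

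Ccl7 had 4 and 3 UMIs in the control mice (0.11 and 0.57 CPM). It was at 7.38, 7.95 and 2.17 CPM in HFD+F+CCl4 and at 31.1, 13.4 and 17.8 CPM in WD+F+CCl4 mice, so here too the 3 groups did not overlap. Pooled over mice the level was 33.8 times that of control in HFD+F+CCl4 (95% exact interval 16.3 to 84.3, counting error only) and 126 times in WD+F+CCl4 (61.1 to 314), with log2 folds of 4.80 (SE 0.91, adjusted p = 0.012) and 6.74 (SE 0.95, adjusted p = 0.0036). Without control mouse 1 the HFD+F+CCl4 call was lost (log2 fold 3.59, adjusted p = 0.0966).

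LAM-like cells, which carry Trem2 and Gpnmb, held 18.9% ± 13.2 (SD, n = 6) of the Ccl2 UMIs of a model liver and 25.7% ± 17.6 of the Ccl7 UMIs. In them, Ccl7 was at 6.56, 18.2 and 1.78 CPM in HFD+F+CCl4 and at 207, 132 and 71.7 CPM in WD+F+CCl4 mice, with no overlap. This was a log2 difference of 3.46 (SE 0.46, adjusted p = 0.0489), 1 of 2 genes called among 10464 in that type (0.0191%). The log2 difference lay at 3.04 to 3.50 where the call was lost, which was without WD+F+CCl4 mouse 1 (adjusted p = 0.0800) or 2 (0.313), without HFD+F+CCl4 mouse 1 (0.0981) or 3 (0.0659), with over 1000 genes per cell (0.0545), without likely doublets (0.105), and at other clustering resolutions (0.0740 and 0.501). Ccl2 in the same cells was at 7.45, 76.4 and 37.4 CPM against 433, 372 and 166 CPM, groups that did not overlap either but did not pass the test. The 6 classical monocyte markers summed to 570 to 1006 CPM in the LAM-like cells of HFD+F+CCl4 mice and to 1108 to 2493 CPM in those of WD+F+CCl4 mice, and their part in this difference was not tested.

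Macrophage-like cells, which carry the C1q genes, showed the same order in smaller steps. Their Ccl2 was at 23.9, 35.7 and 42.9 CPM in HFD+F+CCl4 and 83.1, 78.6 and 80.1 in WD+F+CCl4 mice, and their Ccl7 at 10.5, 12.3 and 6.13 against 46.7, 18.3 and 28.5 CPM. The groups did not overlap for either gene, and neither passed the test. In the hepatic stellate cell and fibroblast-like cells, present in number only in HFD+F+CCl4 mice 1 and 2, Ccl2 was at 155 and 130 CPM and Ccl7 at 44.4 and 30.3 CPM. The 6 macrophage markers summed to 5730 to 8197 CPM in those cells, and their part in these levels was not tested.

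**Figure D3:**
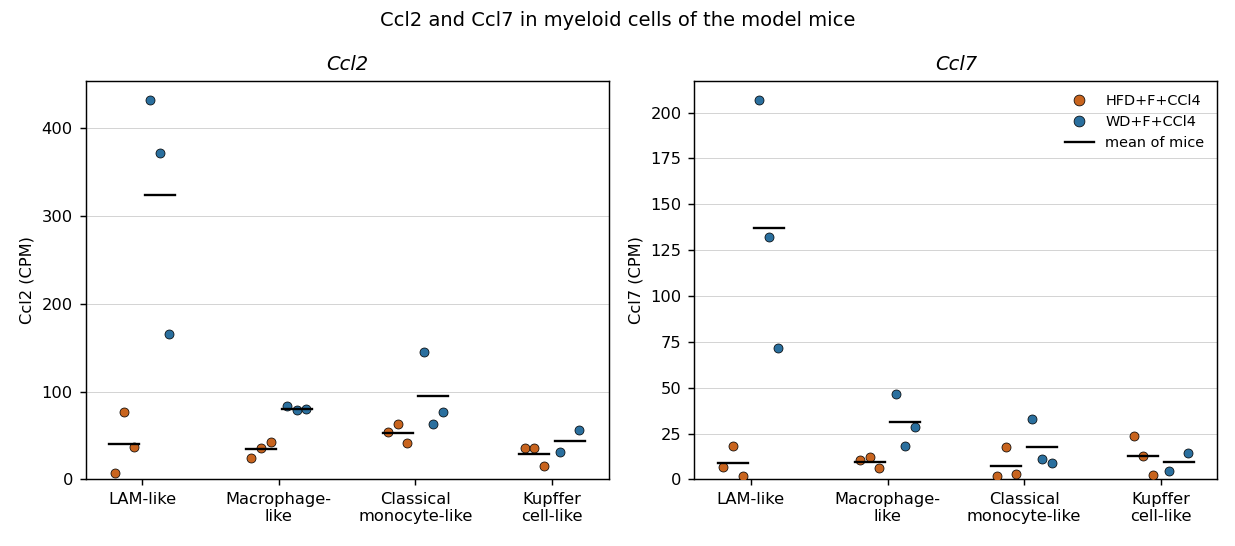
Ccl2 and Ccl7 (y axis, CPM) in LAM-, macrophage-, classical monocyte- and Kupffer-like cells of the model mice (x axis), with 1 point per mouse with at least 20 cells of the type. In LAM-like and macrophage-like cells the points of the WD+F+CCl4 mice lay above those of the HFD+F+CCl4 mice for both genes.

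Classical monocyte-like cells, marked by Ly6c2 and Ccr2, held the largest mean share of Ccl2 UMIs among named types, 24.0% ± 16.2 (SD, n = 6 model mice). Their Ccl2 was at 26.3 and 12.9 CPM in control, 54.3, 62.9 and 41.4 in HFD+F+CCl4, and 145, 63.0 and 77.0 in WD+F+CCl4 mice. All 6 model mice lay above both controls. The rise passed the test in WD+F+CCl4 mice (log2 fold 1.99, SE 0.45, adjusted p = 0.0217, where 9.23% of genes in this type were called), but not without control mouse 1 (adjusted p = 0.136) or 2 (0.0848), and at a lower clustering resolution the log2 fold was -0.21. Different clusters held this class in the groups. Of the control cells, 88.7% and 89.2% lay in cluster 39, where Ccl2 was at 13.1 and 15.1 CPM, and the model cells lay in clusters 4, 5 and 34. In cluster 5, led by the interferon-induced Ifit3 and Oasl1, Ccl2 was at 194 CPM in control mouse 1 and 62.5 to 222 CPM in model mice. In cluster 4 it was at 64.8 CPM in that control mouse and 8.60 to 56.8 CPM in model mice. Both control levels rest on few cells, 23 of control mouse 1 in each cluster. Control mouse 2 had 18 cells in cluster 5 and 4 in cluster 4, and its levels there are not given. The model mice had 21 to 1894 cells in cluster 5 and 32 to 1349 in cluster 4. Control and model mice were not tested against each other within these clusters.

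Ccl2 UMIs were also counted in cells with epithelial markers. Cholangiocyte-like cells, the lining cells of bile ducts, had 0 Ccl2 UMIs in both control mice, against 39.1, 63.8 and 55.2 CPM in HFD+F+CCl4 and 101 and 107 CPM in the 2 WD+F+CCl4 mice with enough cells. Against a floor of 3 counts over the control group, this was at least 6.19-fold higher in HFD+F+CCl4 (adjusted p = 0.0230) and at least 12.2-fold higher in WD+F+CCl4 mice (adjusted p = 0.00458). Only 44 and 32 control cells stood behind it. The HFD+F+CCl4 call was lost without control mouse 1 (adjusted p = 0.582), control mouse 2 (0.118) or HFD+F+CCl4 mouse 2 (0.0620), and the WD+F+CCl4 call without control mouse 1 (0.455). Hepatocyte-like and erythroid-like cells of the model mice held Ccl2 at means of 23.8 and 20.8 CPM. In the cholangiocyte-like cells, 2 to 4 of the 6 macrophage markers had a UMI in control mice and all 6 in the model mice. Their sum, which includes the lipoprotein gene Apoe that hepatocytes also express, was 3889 to 5244 CPM in control, 12146 to 15610 CPM in HFD+F+CCl4 and 8298 to 12902 CPM in WD+F+CCl4 mice, and the 6 classical monocyte markers summed to 137 to 707, 72.6 to 250 and 214 to 1638 CPM. The part of other cells' RNA in this difference was not tested.

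Ccl8, whose protein acts on CCR8 in mice, had 0 and 1 UMIs in the control mice. It was at 32.1, 6.91 and 2.70 CPM in HFD+F+CCl4 and at 3.03, 3.61 and 47.8 CPM in WD+F+CCl4 mice. Every model mouse lay above both controls, and within each model 1 mouse lay far above the other 2. The pooled ratio to control, which rests on that 1 UMI, was 553 (95% exact interval 99.1 to 21834) in HFD+F+CCl4 and 815 (146 to 32183) in WD+F+CCl4 liver. The WD+F+CCl4 call (adjusted p = 0.042) was lost without control mouse 1 (0.238), control mouse 2 (0.120) or WD+F+CCl4 mouse 2 (0.0547), and the HFD+F+CCl4 difference had an adjusted p of 0.054.

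By type, the 3 highest means of Ccl8 were in Kupffer-like, LAM-like and macrophage-like cells. Control mice 1 and 2 held only 8 and 0 Kupffer-like, 2 and 1 LAM-like and 2 and 2 macrophage-like cells. No control level of Ccl8 in these types could be given. In the ratios to control, the number of such cells and Ccl8 per cell cannot be told apart. Kupffer-like cells, the resident macrophages marked by Clec4f and Vsig4, were at 104, 69.6 and 86.6 CPM of Ccl8 in HFD+F+CCl4 mice and at 35.2 and 215 CPM in WD+F+CCl4 mice 2 and 3. LAM-like cells were at 96.9, 17.0 and 7.13 CPM and at 18.7, 17.9 and 93.2 CPM. The 2 mice with the highest Ccl8 over all cells, HFD+F+CCl4 mouse 1 and WD+F+CCl4 mouse 3, were the highest in LAM-like cells too, and they held 464 and 750 of the Kupffer-like cells, against 9 to 226 in the other model mice. Macrophage-like, LAM-like and Kupffer-like cells held 26.2% ± 16.9, 21.8% ± 11.9 and 21.2% ± 17.8 (SD, n = 6) of Ccl8 UMIs.

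Ccl3, Ccl4 and Ccl5 encode ligands known as products of activated myeloid cells (CCL3, CCL4) and of cytotoxic lymphocytes (CCL5). In all cells, Ccl3 was at 14.6 and 14.3 CPM in control, 122, 82.3 and 115 in HFD+F+CCl4, and 56.7, 21.7 and 70.8 in WD+F+CCl4 mice. The 3 groups did not overlap, with the HFD+F+CCl4 mice highest. The rises were 2.98 (SE 0.48, adjusted p = 0.0071) and 1.95 (SE 0.46, adjusted p = 0.023) on the log2 scale. Without control mouse 2 the HFD+F+CCl4 adjusted p was 0.0527, and the WD+F+CCl4 call was lost without WD+F+CCl4 mouse 1 (0.0550), control mouse 1 (0.0977) or control mouse 2 (0.115).

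Ccl4 over all cells was at 56.8 and 86.7 CPM in control, 317, 215 and 334 in HFD+F+CCl4, and 113, 82.7 and 183 in WD+F+CCl4 mice. All HFD+F+CCl4 mice lay above the controls, and the WD+F+CCl4 mice overlapped them. The rise was 2.16 (SE 0.36, adjusted p = 0.0076) in HFD+F+CCl4 mice, lost without control mouse 1 (adjusted p = 0.0578). In WD+F+CCl4 mice the log2 fold was 1.02 with an adjusted p of 0.072.

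Ccl5 over all cells was at 1646 and 1662 CPM in control, 218, 797 and 975 in HFD+F+CCl4, and 292, 403 and 1073 in WD+F+CCl4 mice. Every model mouse lay below both controls, but the log2 folds of -1.15 (adjusted p = 0.30) and -1.33 (adjusted p = 0.23) did not pass the test. T-like and NK-like cells together made up 29.7% and 3.65% of the control cells and 4.92% to 12.7% of the cells of model mice, and the unnamed clusters held 17.1% and 72.9% of the control Ccl5 UMIs.

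Within NK-like cells, all from 1 cluster led by Ncr1 and Klra8, Ccl4 was at 701 and 498 CPM in control, 2049, 1818 and 1127 in HFD+F+CCl4, and 1005, 1138 and 2655 in WD+F+CCl4 mice. All 6 model mice lay above both controls. The log2 folds were 1.47 (SE 0.38, adjusted p = 0.0375, where 3.24% of genes in this type were called) and 1.51 (SE 0.38, adjusted p = 0.0272, 4.62% called). Both calls were lost without either control mouse (adjusted p 0.128 to 0.274) and by DESeq2 (0.183 and 0.123). They were also lost without HFD+F+CCl4 mouse 1 (0.0725) or 2 (0.123) and without WD+F+CCl4 mouse 3 (0.0723). Control mouse 2 had 25 NK-like cells. The summed level of the 6 NK markers was 7836 to 9136 CPM in control against 1823 to 3514 in HFD+F+CCl4 and 3610 to 5763 in WD+F+CCl4 mice, and that of the 6 macrophage markers 495 to 631 against 1373 to 5429 and 1241 to 1898. The 6 classical monocyte markers summed to 749 to 863 CPM in control, 458 to 628 in HFD+F+CCl4 and 513 to 660 in WD+F+CCl4 mice. The 6 neutrophil markers summed to 345 to 2391, 125 to 167 and 66.7 to 483 CPM. The part of these markers in the Ccl4 difference was not tested.

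Ccl5 in the same NK-like cells was at 13243 and 8965 CPM in control, 3953, 5896 and 6855 in HFD+F+CCl4, and 5552, 6337 and 6674 in WD+F+CCl4 mice. Thus every model mouse was below both controls where Ccl4 was above them, but the Ccl5 difference did not pass the test in either model.

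In T-like cells, Ccl4 was at 31.0 and 80.7 CPM in control, 326, 1511 and 2262 in HFD+F+CCl4, and 214, 100 and 1203 in WD+F+CCl4 mice. All 6 model mice lay above both controls, and they differed widely among themselves. The HFD+F+CCl4 difference was 5.11 on the log2 scale (SE 1.25, adjusted p = 0.0488, where 3.79% of genes in T-like cells were called), and it was lost without HFD+F+CCl4 mouse 2 (adjusted p = 0.0956) or 3 (0.0921), control mouse 1 (0.487) or control mouse 2 (0.147). Ccl5 was at 2427 and 2925 CPM in control T-like cells, 4928, 9428 and 7981 in HFD+F+CCl4, and 4055, 4997 and 17749 in WD+F+CCl4 mice, above both controls in all 6 model mice and not called in either model.

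The clusters behind the T-like cells differed between groups. Cluster 8, led by Cd40lg and Cxcr6, held 92.5% and 45.7% of the control T-like cells, with Ccl4 at 31.8 and 69.7 CPM and Ccl5 at 2403 and 2219 CPM. Cluster 27, led by Pdcd1, Cd8a and Lag3, genes of chronically stimulated CD8 T cells, held 30.6% and 25.3% of the T-like cells of HFD+F+CCl4 mice 2 and 3 and 26.7% of those of WD+F+CCl4 mouse 3. In these 3 mice cluster 27 had Ccl4 at 4796, 8022 and 1793 CPM, Ccl3 at 1537, 2320 and 621 CPM, and Ccl5 at 22512, 19722 and 24869 CPM. These 3 mice were the ones with the highest Ccl4 in all T-like cells. Cluster 36, led by Gzmk and Eomes, made up 44.8% of the T-like cells of WD+F+CCl4 mouse 3, the mouse with the highest Ccl5.

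Within cluster 12, a T-like cluster led by Cd8b1 and present in all 8 mice, Ccl4 was at 70.7 and 111 CPM in control, 303, 56.6 and 246 in HFD+F+CCl4, and 45.6, 131 and 395 in WD+F+CCl4 mice. Ccl5 there was at 5954 and 5046 CPM, at 4565, 6485 and 7929 CPM, and at 5579, 7184 and 8192 CPM. Both genes overlapped the controls in this cluster. T-like cluster 23 also had at least 20 cells in every mouse, and its levels are not given here.

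**Figure D4:**
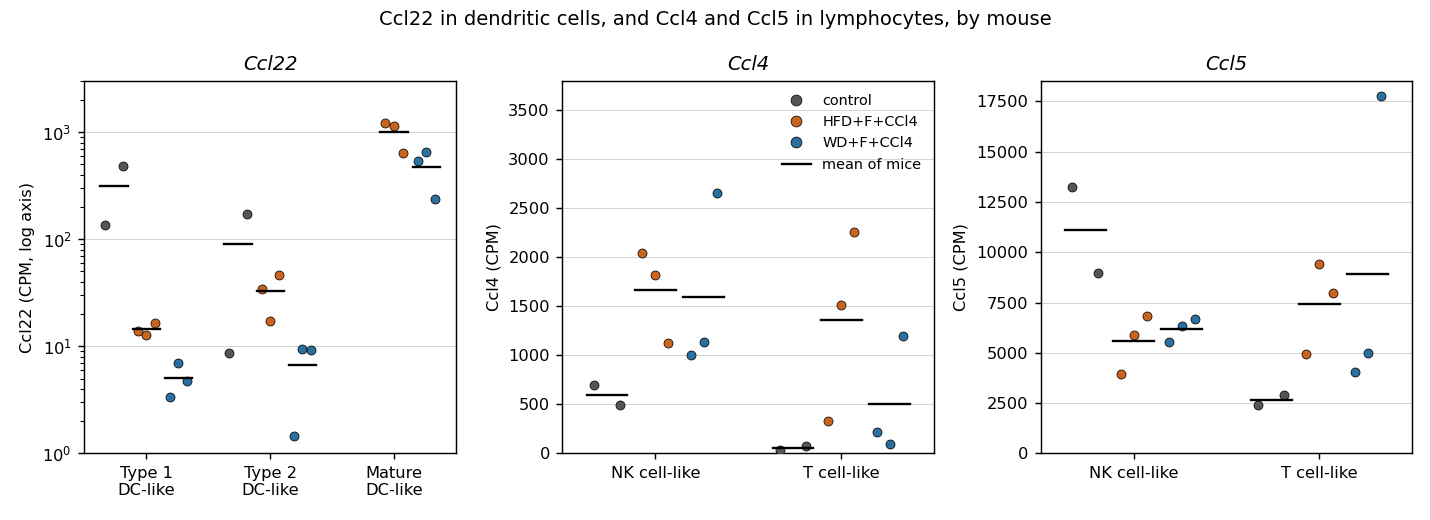
Ccl22 in type 1, type 2 and mature DC-like cells (CPM, logarithmic axis) and Ccl4 and Ccl5 in NK-like and T-like cells (CPM), with 1 point per mouse with at least 20 cells of the type. In type 1 DC-like cells Ccl22 was at 136 and 486 CPM in control and at 3.36 to 16.5 CPM in the 6 model mice.

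Myeloid cells carried Ccl3 and Ccl4 as well. Neutrophil-like cells had Ccl3 at 269 CPM in control mouse 1, 333, 243 and 242 in HFD+F+CCl4, and 292, 71.8 and 462 in WD+F+CCl4 mice, and Ccl4 at 750 CPM against 461, 474, 469, 399, 265 and 436 CPM. The control value lay inside the model range for Ccl3 and above it for Ccl4. With 1 control mouse there was no test. In macrophage-like cells Ccl3 was at 199, 53.7 and 44.4 CPM in HFD+F+CCl4 and 35.9, 30.8 and 67.7 CPM in WD+F+CCl4 mice, with Ccl4 at 522 CPM in HFD+F+CCl4 mouse 1 against 75.7 to 159 CPM in the other 5. HFD+F+CCl4 mouse 1 was also the highest for both genes in classical monocyte-like (216 and 374 CPM), patrolling monocyte-like (143 and 233 CPM) and Kupffer-like cells (122 and 270 CPM). This library was the highest in the immediate-early gene Fos (626 CPM against 28.5 to 233 CPM in the other 7) and the heat-shock gene Hspa1a (397 against 14.9 to 104 CPM). It gave 89.3% of the cells of the macrophage-like cluster led by Fos, Fosb and Atf3. WD+F+CCl4 mouse 3 was next for both genes (233 and 104 CPM). That mouse gave 518 of the 755 cells of classical monocyte-like cluster 34, whose leading genes included Fos and Hspa1a. The part of these genes in the Ccl3 and Ccl4 levels was not tested. Without HFD+F+CCl4 mouse 1 both rises over all cells were still called.

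Outside T-like and NK-like cells, Ccl5 fell in several types. In type 1 DC-like cells (Xcr1, Clec9a), it was at 555 and 617 CPM in control, 39.6, 9.52 and 35.6 in HFD+F+CCl4, and 87.4, 14.0 and 69.2 in WD+F+CCl4 mice. The ranges did not overlap, with log2 folds of -4.48 (SE 0.46, adjusted p = 1.3e-05) and -3.34 (SE 0.45, adjusted p = 0.00034), where 6.36% and 6.81% of genes in this type were called. Of 16 alternatives each, both calls were lost only at a higher clustering resolution (adjusted p = 0.172 and 0.181). In B-like cells Ccl5 was at 153 and 296 CPM in control against 11.1, 16.2 and 40.7 and 6.02, 7.04 and 16.5 CPM (log2 folds -3.51 and -4.18, adjusted p = 3.3e-05 and 5.8e-08). It was also lower in cholangiocyte-like cells of both models (log2 folds -4.42 and -2.74, adjusted p = 0.0015 and 0.021), in plasmacytoid DC-like cells of both (-2.46 and -2.19, adjusted p = 0.011 and 0.0038), and in classical monocyte-like cells of WD+F+CCl4 mice (-2.83, adjusted p = 0.012). The cholangiocyte calls were lost without control mouse 1 (adjusted p = 0.517 and 0.584), and in WD+F+CCl4 also without control mouse 2 (0.0973). Without control mouse 2, the classical monocyte call (0.0714) and both plasmacytoid DC calls (0.0788 and 0.0605) were lost, the HFD+F+CCl4 one also without HFD+F+CCl4 mouse 3 (0.128).

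T cell markers moved with this fall of Ccl5. The 6 T cell markers summed to 503 to 592 CPM in control type 1 DC-like cells against 7.92 to 74.1 CPM in HFD+F+CCl4 and 36.7 to 62.9 CPM in WD+F+CCl4 mice. In B-like cells they summed to 106 to 319 CPM against 0 to 30.8 and 4.23 to 10.1 CPM, and in classical monocyte-like cells to 59.9 to 206 CPM against 5.09 to 12.9 and 4.64 to 11.3 CPM. In cholangiocyte-like cells the T cell marker sums were 199 to 309 CPM against 5.51 to 34.3 and 15.9 to 20.2 CPM, and in plasmacytoid DC-like cells 742 to 1093 CPM against 348 to 412 and 274 to 366 CPM. The part of these markers in the lower Ccl5 was not tested. The control and model B-like cells also lay in different clusters, 98.2% and 62.9% of the control cells in cluster 14 and at least 90.2% of those of each model mouse in cluster 10.

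The remaining Ccl5 call went the other way. In plasma cell-like cells Ccl5 was at 1206 and 906 CPM in control and at 1022 and 2818 CPM in WD+F+CCl4 mice 1 and 3, with a log2 fold of 1.52 (adjusted p = 0.0455). The groups overlapped, and the call was lost in 8 of 12 alternatives, among them those without WD+F+CCl4 mouse 3 (adjusted p = 0.105), control mouse 1 (0.335) or control mouse 2 (0.528).

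Ccl6 and Ccl9 encode CCR1 ligands that myeloid cells make constitutively in mice. In all cells, Ccl6 was at 127 and 159 CPM in control, 491, 635 and 563 in HFD+F+CCl4, and 746, 577 and 835 in WD+F+CCl4 mice. Ccl9 was at 54.0 and 57.5 CPM, at 254, 251 and 415 CPM, and at 361, 291 and 243 CPM. All model mice lay above both controls. The rises on the log2 scale were 2.12 (SE 0.24, adjusted p = 0.0023) and 2.53 (SE 0.25, adjusted p = 0.0012) for Ccl6 and 2.60 (SE 0.36, adjusted p = 0.0041) and 2.62 (SE 0.36, adjusted p = 0.0033) for Ccl9, the HFD+F+CCl4 value first in each pair, and all 4 calls held in every alternative run.

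Within classical monocyte-like cells neither gene was called. Ccl6 was at 1010 and 1023 CPM in control, 850, 1038 and 908 in HFD+F+CCl4, and 932, 925 and 1061 in WD+F+CCl4 mice, and Ccl9 at 541 and 447 CPM, at 509, 458 and 489 CPM, and at 514, 416 and 471 CPM. The groups overlapped for both genes. These cells held 22.7% ± 17.4 of Ccl6 UMIs and 23.8% ± 18.0 of Ccl9 UMIs over the 6 model mice. The highest pooled mean of Ccl6 was in Kupffer-like cells (974, 1218 and 1561 CPM in HFD+F+CCl4, 1096 and 2136 CPM in WD+F+CCl4 mice), and that of Ccl9 in LAM-like cells (284, 374 and 741 CPM, and 628, 529 and 457 CPM), whose range held all 6 values of classical monocyte-like cells.

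**Figure D5:**
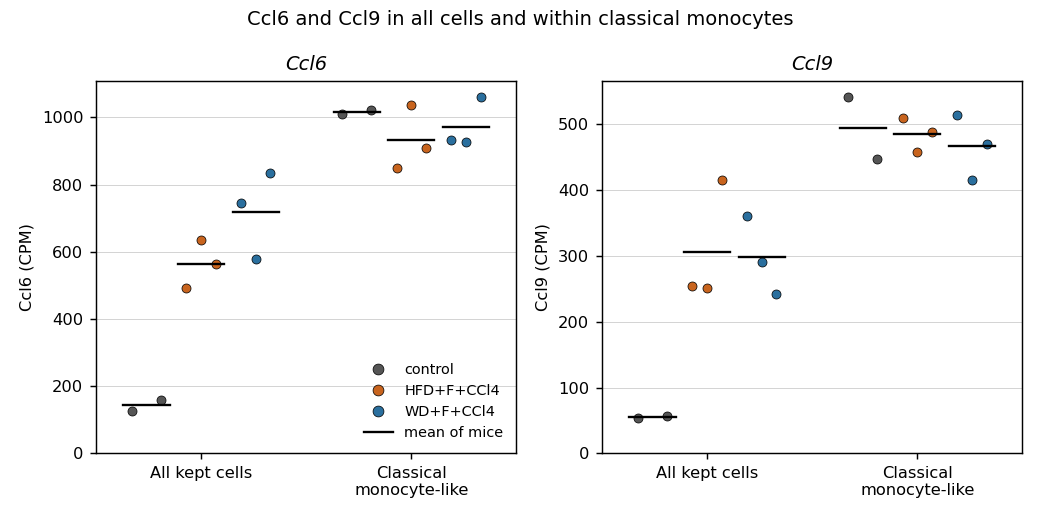
Ccl6 and Ccl9 (y axis, CPM) in all kept cells and in classical monocyte-like cells of each mouse, with 1 point per mouse in the 3 groups. Over all cells the model mice lay above the controls for both genes, and within classical monocyte-like cells the groups overlapped.

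Ccl6 was called higher in lymphocyte-like cells, at far lower levels. In T-like cells it was at 17.7 and 18.6 CPM in control, 96.5, 63.5 and 54.8 in HFD+F+CCl4, and 35.6, 42.4 and 82.8 in WD+F+CCl4 mice, with log2 folds of 1.93 (adjusted p = 0.024) and 1.71 (adjusted p = 0.037, where 4.43% of genes in T-like cells were called). The HFD+F+CCl4 call was lost without HFD+F+CCl4 mouse 2 (adjusted p = 0.0537), control mouse 1 (0.487) or control mouse 2 (0.0685), and the WD+F+CCl4 call without WD+F+CCl4 mouse 2 (0.0617), control mouse 1 (0.474) or control mouse 2 (0.0853). In NK-like cells the Ccl6 calls (log2 folds 2.76 and 2.48, adjusted p = 0.020 and 0.034) came with overlapping ranges and fell to 0.84 and 0.57 without control mouse 1. The 6 macrophage markers summed to 460 to 504 CPM in the T-like cells of control mice, against 1593 to 5995 CPM in those of HFD+F+CCl4 and 967 to 2049 CPM in those of WD+F+CCl4 mice. The 6 classical monocyte markers there did not rise, at 1283 to 1602 CPM in control, 821 to 1193 in HFD+F+CCl4 and 513 to 1598 in WD+F+CCl4 mice. The 6 neutrophil markers summed to 86.8 to 174, 83.1 to 254 and 90.6 to 195 CPM. The sums in NK-like cells are given above. The part of these markers in the Ccl6 calls was not tested.

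Ccl9 was called in HFD+F+CCl4 mice in T-like cells (log2 fold 2.23, adjusted p = 0.019) with overlapping ranges, in B-like cells at 7.35 and 0 CPM in control against 40.7, 33.8 and 0 CPM (adjusted p = 0.023), and in plasmacytoid DC-like cells at 3.89 and 14.7 CPM in control against 30.6 and 28.3 CPM (log2 fold 2.18, adjusted p = 0.028). All 3 Ccl9 calls were lost without control mouse 1 (adjusted p = 0.687, 0.556 and 0.353). They were also lost without HFD+F+CCl4 mouse 3 in T-like cells (0.0535) and plasmacytoid DC-like cells (0.117), without HFD+F+CCl4 mouse 1 in B-like cells (0.0912), and without HFD+F+CCl4 mouse 2 in B-like (0.178) and plasmacytoid DC-like cells (0.172).

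Ccl22, a CCR4 ligand made by activated dendritic cells, lay mostly in mature DC-like cells, which carry Ccr7 and Fscn1. There it was at 1222, 1151 and 641 CPM in HFD+F+CCl4 and at 537, 650 and 239 CPM in WD+F+CCl4 mice, values that overlapped. These cells, 34 to 265 per model mouse, held 60.8% (33.3 to 87.3%) of the Ccl22 UMIs of a model liver, and 17.2% and 21.8% of those of the control livers, where 14 and 13 such cells were found.

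Over all cells Ccl22 was at 27.7 and 76.9 CPM in control, 12.3, 13.5 and 35.7 in HFD+F+CCl4, and 2.28, 8.24 and 1.64 in WD+F+CCl4 mice. The WD+F+CCl4 mice lay below every other mouse, and the HFD+F+CCl4 mice overlapped the controls. Ccl22 fell by 3.42 on the log2 scale in WD+F+CCl4 liver (SE 0.84, adjusted p = 0.027), a call lost without WD+F+CCl4 mouse 1 (adjusted p = 0.0762) or 3 (0.0555), control mouse 1 (0.0560) or control mouse 2 (0.138). In HFD+F+CCl4 liver the log2 fold was -1.12 (adjusted p = 0.37).

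Ccl22 also fell in type 1 DC-like cells of both models. Ccl22 was at 136 and 486 CPM in control, 13.9, 12.7 and 16.5 in HFD+F+CCl4, and 3.36, 6.99 and 4.72 in WD+F+CCl4 mice. The 3 groups did not overlap. The log2 folds were -4.27 (SE 0.40, adjusted p = 5.5e-06) and -5.80 (SE 0.54, adjusted p = 1.5e-05). Both calls held in all 16 alternatives, with adjusted p no higher than 0.00016 and 0.00060. These cells formed 1 cluster in all mice, with 67 to 224 cells per mouse. The 6 mature DC markers summed to 216 to 435 CPM in the control cells of this type, 59.2 to 95.3 CPM in HFD+F+CCl4 and 85.7 to 126 CPM in WD+F+CCl4 mice, and their part in the Ccl22 fall was not tested.

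Type 2 DC-like cells (Cd209a, Clec10a) had Ccl22 at 8.66 and 171 CPM in control, 34.2, 17.2 and 46.8 in HFD+F+CCl4, and 1.46, 9.45 and 9.23 in WD+F+CCl4 mice. The groups overlapped and no member was called there. In plasmacytoid DC-like cells Ccl22 was at 41.4 and 9.83 CPM in control and had 0 UMIs in all 3 WD+F+CCl4 mice, at least 28.8-fold lower against a floor of 3 counts over the group (adjusted p = 0.00091), a call held in all 9 alternatives in which it was tested.

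Ccl24 encodes an eosinophil attractant that alternatively activated macrophages make. Over all cells it was at 18.9 and 9.80 CPM in control, 10.3, 8.86 and 29.1 in HFD+F+CCl4, and 6.11, 9.48 and 9.06 in WD+F+CCl4 mice. The HFD+F+CCl4 mice overlapped the controls and the WD+F+CCl4 mice lay just below them, with log2 folds of 0.27 (adjusted p = 0.80) and -0.68 (adjusted p = 0.47). Among the 18 types compared in the model mice, Kupffer-like cells (17.9, 39.4 and 13.1 CPM in HFD+F+CCl4, 13.2 and 42.4 CPM in WD+F+CCl4) and classical monocyte-like cells (56.9, 11.1 and 57.2 CPM, and 10.5, 4.45 and 5.93 CPM) led. Hepatic stellate cell and fibroblast-like cells, outside those 18 types, were highest in HFD+F+CCl4 mouse 2, at 95.2 CPM. In HFD+F+CCl4 mouse 1, which also had enough of them, classical monocyte-like cells were highest. The largest share of Ccl24 UMIs, 39.5% ± 23.2 (SD, n = 6), lay in unnamed clusters. In unnamed cluster 13, led by Il1rn, Gpr84, Acod1 and Cd14, Ccl24 was at 277, 74.4 and 119 CPM in HFD+F+CCl4 and 11.5, 92.6 and 34.6 CPM in WD+F+CCl4 mice, and Ccl9 at 1180, 556 and 998 CPM and at 428, 409 and 496 CPM. Of the cells of cluster 13, 27.8% ranked as likely doublets. The only Ccl24 call within a type was in T-like cells of WD+F+CCl4 mice, at 0, 0 and 1.35 CPM against 15.5 and 6.21 CPM in control (log2 fold -4.51, adjusted p = 0.030), lost without control mouse 1 (adjusted p = 0.646) or WD+F+CCl4 mouse 1 (0.0629) or 2 (0.0938).

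Over all types with enough cells, 20 of 66 member tests were called in HFD+F+CCl4 mice against control (15 higher and 5 lower, in 7 of 10 types), where 3.98% of all gene-by-type tests were called. In WD+F+CCl4 mice 18 of 69 were called (10 higher and 8 lower, in 9 of 11 types), where 5.95% of all tests were. Between the models 2 of 123 were called, where 0.0190% of all tests were, namely Ccl7 in LAM-like cells and Ccl4 in B-like cells. These contrasts with all tests are descriptions too, since the members were chosen with earlier results known. Ccl4 in B-like cells was at 77.6, 54.3 and 0 CPM in HFD+F+CCl4 and 15.7, 7.04 and 8.88 CPM in WD+F+CCl4 mice, with 21 cells in HFD+F+CCl4 mouse 3. The groups overlapped, and the log2 difference of -2.08 (SE 0.43, adjusted p = 0.0371, 0.310% of genes called) was lost without WD+F+CCl4 mouse 2 (adjusted p = 0.162) or HFD+F+CCl4 mouse 1 (0.413) or 2 (0.204). In B-like cells of HFD+F+CCl4 against control mice, Ccl4 (log2 fold 3.39, adjusted p = 0.00082) and Ccl6 (2.54, adjusted p = 0.024) were called with overlapping ranges and lost without control mouse 1 (adjusted p = 0.611 and 0.790), and Ccl6 also without HFD+F+CCl4 mouse 1 (0.0855) or 2 (0.0707).

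Cycling cells, marked by Mki67 and Top2a, gave 7 of the calls. In HFD+F+CCl4 mice Ccl3 (log2 fold 5.49, adjusted p = 0.028), Ccl4 (4.89, adjusted p = 0.022), Ccl6 (3.42, adjusted p = 0.0090) and Ccl9 (3.62, adjusted p = 0.0020) were higher than in control. In WD+F+CCl4 mice Ccl6 (4.29, adjusted p = 0.0029) and Ccl9 (4.27, adjusted p = 0.00087) were higher, and Ccl2, with 0 UMIs in control, was at least 58.4-fold higher (adjusted p = 0.012). All 7 were lost without control mouse 1 (adjusted p 0.0555 to 0.335), and Ccl3 (0.0933) and Ccl4 (0.0694) also without control mouse 2. The dividing cells differed in kind: 92.1% and 89.3% of the control cycling cells lay in cluster 30 and 51.4% to 87.5% of those of the model mice in cluster 21. The macrophage markers summed to 189 to 330 CPM in control cycling cells against 4394 to 24111 CPM in HFD+F+CCl4 mice and 8901 to 24109 CPM in WD+F+CCl4 mice, and the T cell markers to 1864 to 2059 CPM against 149 to 1565 and 307 to 692 CPM. Their part in these calls was not tested. Within cluster 30 alone, Ccl4 was at 11.4 and 44.4 CPM in control, 120, 925 and 2302 in HFD+F+CCl4, and 216, 35.4 and 676 in WD+F+CCl4 mice.

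The remaining calls rested on few control UMIs. Ccl2 in T-like cells had 34 UMIs in WD+F+CCl4 mice and 2 in control mice, a pooled ratio of 21.7 (95% exact interval 5.57 to 187), with an adjusted p of 0.033 that was lost without WD+F+CCl4 mouse 2 (0.0864), control mouse 1 (0.599) or control mouse 2 (0.0578). Ccl4 in type 1 DC-like cells was at 4.25 and 16.8 CPM in control and 107, 29.1 and 27.5 CPM in HFD+F+CCl4 mice (log2 fold 2.59, adjusted p = 0.032), lost without control mouse 1 (0.405). No member was called in endothelial or type 2 DC-like cells.

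CC receptor genes were read from the same sums, those of ligands outside the 10 members included. Of 10 CC receptor genes tested over all cells, Ccr1 rose and Ccr7, Ccr9 and Ccr10 fell in HFD+F+CCl4 liver, where 18.9% of all genes tested were called. In WD+F+CCl4 liver Ccr1 and Ccr2 rose and Ccr7 and Ccr10 fell, where 21.4% were called. Ccr1, the receptor of Ccl6 and Ccl9, rose by 2.15 and 3.02 on the log2 scale (adjusted p = 0.0052 and 0.0016). Ccr2 rose by 1.24 in WD+F+CCl4 liver (adjusted p = 0.044), and the CCR4 gene Ccr4 had log2 folds of -1.19 (adjusted p = 0.31) and -1.68 (adjusted p = 0.15). By mean CPM over the model mice, Ccr1 led in neutrophil-like cells (550), Ccr4 in T-like cells (17.2) and Ccr6 in B-like cells (131). Ccr2 led in classical monocyte-like cells (1072), Ccr7 in mature DC-like cells (714) and Ccr9 in plasmacytoid DC-like cells (1095). Ccr2, Ccr7 and Ccr9 are on the marker lists that named those types, so their leading types follow from the naming and are not results.

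Of 8 other CC ligands tested over all cells, Ccl12 (log2 fold 6.91, adjusted p = 0.0012) and Ccl19 rose in HFD+F+CCl4 liver, and in WD+F+CCl4 liver Ccl12 rose (8.40, adjusted p = 0.00070) and Ccl17, the other CCR4 ligand, fell (-3.53, adjusted p = 0.048). Of 6 atypical receptors and binding partners, Ccrl2 rose in HFD+F+CCl4 liver (2.08, adjusted p = 0.025) and none was called in WD+F+CCl4 liver. Of 8 NF-kB inducers and feedback genes, Il1b rose in HFD+F+CCl4 liver (2.01, adjusted p = 0.031) and none was called in WD+F+CCl4 liver. Of 7 alternative activation genes tested, Irf4 fell in both models, and Chil3 (3.68, adjusted p = 0.010) and Stat6 (0.61, adjusted p = 0.044) rose in WD+F+CCl4 liver. Chil3 is also on the classical monocyte marker list. Classical monocyte-like cells made up 3.93% and 4.87% of the control cells and 10.3% to 27.1% of those of WD+F+CCl4 mice. Their part in the Chil3 rise was not tested. Of 16 liver-secreted genes, products of hepatocytes, 9 fell in HFD+F+CCl4 and 12 in WD+F+CCl4 liver and none rose. Hepatocyte-like cells made up 0.22% and 0.07% of the control cells and 0.32% to 2.99% of those of the model mice. The fall is therefore not read as lower expression in hepatocytes, and its cause was not tested. No gene of these lists was called between the models. Of all genes tested over all cells, 18.9% were called in HFD+F+CCl4 and 21.4% in WD+F+CCl4 liver against control. The list counts stand beside these shares as descriptions.

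Over 130 sums of 1 type in 1 mouse, the genes most like each member by Pearson's r of log2(CPM + 1), among 9373 genes, were C3ar1 (r = 0.80) and Trem2 (0.79) for Ccl2, Pf4 (0.75) and Gpx3 (0.73) for Ccl7, and Folr2 and Fabp7 (both 0.87) for Ccl8. Ccl6 was most like Lst1 (0.92) and Sat1 (0.90), and Ccl9 most like Ms4a6d and Cx3cr1 (both 0.90). For Ccl5 they were Trbc2 (0.84) and Nkg7 (0.82), for Ccl22 Ccl17 (0.77) and Apol7c (0.68), and for Ccl3 Lilr4b (0.67) and Vmp1 (0.65). The closest to Ccl4 were Rgs1 (0.66) and Cd200r4 (0.63), and to Ccl24 Lyz2 and Rnpep (both 0.54). Between members the values were 0.86 for Ccl3 and Ccl4, 0.80 for Ccl2 and Ccl7, and 0.78 for Ccl6 and Ccl9. The sums share libraries and depth, so these values are descriptions.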

How the data were processed

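The authors deposited 1 matrix of UMI counts (bcl2fastq 2.20 and Cell Ranger, GRCm38, per the submitters' processing notes), made from 10x libraries of 8 enzymatically digested livers. Barcode suffixes, as the labels give them, assigned cells to mice.

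Barcodes were kept above 500 detected genes and below 25% of UMIs from mitochondrial genes, and clustered (scanpy 1.11.5, leidenalg 0.10.2) without 38 Ccl and Cxcl genes, on 2000 variable genes, 30 principal components and 20 neighbours at resolution 1.5 (51 clusters), and named from marker lists. Cells ranking highest by doublet score (7452, at 0.8% per 1000 barcodes) were kept, and left out in an alternative. UMIs were summed per mouse and type (at least 20 cells) and tested with edgeR 4.0.16 in R 4.3.3 (quasi-likelihood, TMM, filterByExpr minimum count 10, Benjamini-Hochberg over all genes tested, adjusted p under 0.05), the mouse being the replicate. The study's test over cells was not used, since cells are not replicates. Intervals and floors (3 counts) cover counting error only.

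On simulated counts for 19787 genes with 200 changed over all cells, the test recovered 65.5% in HFD+F+CCl4 against control, 67% in WD+F+CCl4 against control and 82.5% between the models, with 3, 8 and 3 false calls. The simulation gave every gene the same spread and every changed gene the same size of fold. These percents are therefore not the power to detect differences in the members. Alternatives were DESeq2 1.42.0, no scaling, no filter, other cell filters (more than 1000 genes; under 10% mitochondrial), other resolutions (0.8 and 2.5), at least 50 cells, a replicate block, only the groups compared, leaving out each mouse and, added after the data were seen, leaving out unnamed clusters. The members and gene lists were chosen with earlier results of these data known. All 10 members are described; of each other list the counts and up to 3 called genes with the largest change per comparison, the leading types of receptors, and the 2 genes most alike each member are named. Ccr4 and some marker or cluster-leading genes were named after their values were seen. Values of 1 receptor gene are not reported here.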

Additional observations from a re-analysis of the deposited data

Results flagged for a closer look

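The log2 difference between the models was called by its own edgeR test for 2 member and type pairs, which is why they stand here. Ccl7 in LAM-like cells was higher by 3.46 in WD+F+CCl4 than in HFD+F+CCl4 mice (adjusted p = 0.0489, higher in 3 of 3 mice). Ccl4 in B-like cells fell by 2.08 (adjusted p = 0.0371), with overlapping groups. No group had 4 or more mice, so no test for a mouse standing apart was run.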

How the results depend on the processing

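Of 776 alternatives run for the 53 member tests that were called, 624 kept direction and call, 151 kept the direction but not the call, and 1 turned the direction (Ccl2 in classical monocyte-like cells, WD+F+CCl4 against control, log2 fold -0.21 at the lower clustering resolution). The smallest control group had most weight: 33 of 50 calls were lost without control mouse 1 and 19 of 51 without control mouse 2, which leave 1 control mouse assumed to vary like the other groups.

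The replicate numbers did not pair the mice, since deviations of same-numbered mice correlated at -0.65 to 0.09 over 9161 genes. With the replicate number as a block, 39 of 52 calls held, genes called over all cells numbered 1279 in place of 3730 (HFD+F+CCl4 against control) and 1722 in place of 4227 (WD+F+CCl4 against control), and 5 member tests in place of 2 were called between the models within types. The block also turned 2 uncalled differences over all cells, Ccl24 in HFD+F+CCl4 against control (-0.26) and Ccl8 between the models (-0.46). With only the 2 groups compared in the fit, 2314 genes were called over all cells in HFD+F+CCl4 against control and 1 member test within types between the models.

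Calls of members within types were 20 in HFD+F+CCl4 against control, 18 in WD+F+CCl4 against control and 2 between the models. Without the filter on low counts they were 44, 45 and 43. That fit had an infinite prior degrees of freedom in every type, against 4.39 to 16.9 with the filter. The shares of all gene-by-type tests called in the alternatives listed here are not given, so the counts are not read as results about the members. With more than 1000 genes per cell the member calls were 8, 7 and 0. Under that filter only 31 of the 53 called member tests, those over all cells included, could be compared, and 26 held. Between the models DESeq2 gave 6 member calls, and there was 1 without likely doublets, 1 at the lower and 0 at the higher resolution. Over all cells DESeq2 called 46 genes and 1 member between the models. The cause of these changes was not tested.

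Leaving out each mouse in turn, genes called over all cells ranged from 2016 (without control mouse 1) to 3253 in HFD+F+CCl4 against control and from 2299 (without WD+F+CCl4 mouse 2) to 3432 in WD+F+CCl4 against control. Members called over all cells ranged from 4 to 6 in WD+F+CCl4 against control, the 4 without either control mouse. Within types the member calls ranged from 5 (without control mouse 1) to 17, from 6 (without control mouse 1) to 18, and between the models from 1 to 7 (without WD+F+CCl4 mouse 3). Uncalled log2 differences over all cells that turned were Ccl24 in HFD+F+CCl4 (-0.59 without HFD+F+CCl4 mouse 3, to 1.03) and WD+F+CCl4 against control (-1.07 to 0.088, the latter without control mouse 1), and between the models Ccl5 (-0.87 to 0.27), Ccl8 (-1.84 without WD+F+CCl4 mouse 3, to 1.88) and Ccl9 (-0.16 to 0.38; -0.040 with no scaling). Without unnamed clusters, an alternative added after the data were seen, Ccl24 in HFD+F+CCl4 against control was -0.15.

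At the lower resolution no cluster was named mature DC-like, so the share of Ccl22 UMIs in it was 0, and at the higher resolution Ccl24 in Kupffer-like cells had a mean of 43.0 CPM in place of 25.2. With at least 50 cells per mouse all 31 calls that could be tested held, and NK-like cells had no control comparison. The control livers held 7 UMIs of Ccl7 and 1 of Ccl8.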
